A study of Mus musculus with 12 samples.

Results

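The glucocorticoid receptor, the enzyme that supplies its ligand and 8 of the genes it is known to induce were followed in mouse osteoblasts kept in medium from prostate cancer cells. The 10 genes, out of 25511 in the deposited gene table, are Nr3c1, Hsd11b1, Fkbp5, Tsc22d3, Zbtb16, Per1, Klf9, Sgk1, Glul and Pdk4. They were chosen by name, with their fragment numbers in all 4 groups already known. Their levels, their changes and the calls on these changes are therefore a description and are not used as a test. All 10 passed the filter on low counts.

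The cells were osteoblasts released with collagenase from the calvariae, the flat skull bones, of neonatal C57Bl/6J mice. Libraries labelled KO came from mice with the genotype F2rl1 -/-, which lack the gene of protease-activated receptor 2 (PAR2), and libraries labelled WT from wild-type mice. After 48 h of preculture, cells of both genotypes spent 4 days in BRFF-HPC1 medium with 20% FCS, which was unconditioned or had first been on cultures of the human prostate cancer line MDA-PCa-2b for 48 h. The 4 groups were conditioned KO, unconditioned KO, conditioned WT and unconditioned WT, with 3 samples each. Every group had the serum and the BRFF-HPC1 base medium, and no label names an added glucocorticoid.

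Libraries are numbered from 0 within a group, as in the deposited tables, and no label ties these numbers to the sample titles. Unconditioned WT libraries 0 and 1 differed by less than the sampling noise and were counted as 1 library, named library 0 here, so 11 libraries remained. They held 15023994 to 16956754 fragments. One sample titled WT carries the genotype label F2rl1 -/- and was kept by its title. F2rl1 had 31, 13 and 12 fragments in conditioned KO libraries and 33, 33 and 46 in unconditioned KO libraries. It had 14, 23 and 14 in conditioned WT libraries and 25 and 20 in unconditioned WT libraries. The gene was therefore not lower in the libraries labelled KO. Fragments are summed over the entire gene, so the part of it that they came from is not known. The genotype of the libraries was not tested further, and genotypes are given as labelled. Libraries of a group were compared by a chi-square of their fragments over genes. Conditioned KO library 0 was at 1317500 and 2083790 from the other libraries of its group, which were at 202529 from each other. For unconditioned KO library 0 the values were 893754 and 1185740, against 94766. For conditioned WT library 1 they were 577138 and 988125, against 270588. In any group of 3, 1 library lies outside the closest pair, so this alone does not mark a library as faulty. Results that rest on conditioned KO library 0 are given with and without it. Of 12 osteoblast markers, 10 passed the filter on low counts and were summed. Their level was 24470 to 33437 CPM (counts scaled to library size) in conditioned KO, 36644 to 58046 CPM in unconditioned KO, 26902 to 41492 CPM in conditioned WT and 37234 to 42729 CPM in unconditioned WT. Bglap and Dmp1, which mark mature osteoblasts and osteocytes, did not pass, while the matrix gene Col1a1 averaged 3456 FPKM (fragments scaled to gene length and depth) in unconditioned KO.

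Glucocorticoids are steroid hormones that enter the cell and bind the receptor encoded by Nr3c1. Before binding, the receptor is held in the cytoplasm by Hsp90 chaperones and cochaperones. With ligand it moves to the nucleus, where it binds DNA elements made of a pair of inverted half-sites and raises or represses transcription. Osteoblasts carry the receptor, and they hold 11-beta-hydroxysteroid dehydrogenase 1, which regenerates active hormone from an inactive form. In bone, an excess of the hormone is known to impair osteoblast function, while low levels take part in their differentiation.

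The receptor itself differed little between media in KO and was somewhat higher in conditioned medium in WT. Nr3c1 (chromosome 18) had 2091, 1567 and 1505 fragments in conditioned KO libraries 0, 1 and 2, against 1523, 1242 and 1415 in unconditioned KO libraries. In WT it had 2163, 1922 and 1856 fragments in conditioned libraries 0, 1 and 2, against 1533 and 1431 in unconditioned libraries 0 and 2. The KO groups overlapped, while all 3 conditioned WT libraries lay above both unconditioned ones. Mean levels were 102 ± 25.2 CPM in conditioned KO and 95.3 ± 7.68 CPM in unconditioned KO (SD, n = 3 each). They were 131 ± 8.21 CPM in conditioned WT (n = 3) and 100.4 ± 0.479 CPM in unconditioned WT (n = 2). The log2 change with conditioned medium was 0.10 (SE 0.16) in KO and 0.38 (SE 0.18) in WT. Without conditioned KO library 0, the highest of its group, the change in KO was -0.11 (SE 0.11).

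Hsd11b1 (chromosome 1, 193221641 to 193264045; GRCm38 here and below), the gene of 11-beta-hydroxysteroid dehydrogenase 1, was scarce in every library. It had 39, 38 and 26 fragments in conditioned KO libraries and 17, 40 and 31 in unconditioned KO libraries. It had 63, 41 and 26 in conditioned WT libraries and 56 and 15 in unconditioned WT libraries. The ranges of all groups overlapped. Log2 changes were 0.02 (SE 0.52) in KO and 0.26 (SE 0.57) in WT, and no difference was detectable at this depth.

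The 8 induced genes were lower in conditioned medium in both genotypes. For each of the 8, all 6 conditioned libraries lay below all 5 unconditioned libraries in CPM. Of all 13603 genes tested, 8.45% had all conditioned libraries below and 7.98% had all of them above. In KO, 6 of the 10 genes were called lower by edgeR's quasi-likelihood test at an adjusted p under 0.05 (Fkbp5, Tsc22d3, Zbtb16, Klf9, Glul and Pdk4), beside 8.58% of all genes called lower and 18.3% called in either direction. In WT, 3 were called lower (Fkbp5, Tsc22d3 and Pdk4), beside 0.551% of all genes called lower and 1.78% called in either direction. Nothing is read from these shares, since the genes were chosen with these values known. When 1 library was left out, 3 to 8 of the 10 were called in KO and 0 to 5 in WT. The lowest count in KO came without conditioned KO library 1 or 2 or unconditioned KO library 1 or 2, and the lowest in WT without either unconditioned WT library. Fkbp5, Tsc22d3 and Pdk4 were called in KO in all 11 of these fits. As the genes were chosen with these values known, such counts describe the fits and are no evidence for the genes. In these bulk samples, fewer cells of a type and less RNA per cell cannot be told apart. Osteoblast marker sums, made up mostly of Col1a1, Col1a2, Spp1 and Sparc, were also lower in conditioned KO. Of the 10 osteoblast markers tested, 8 changes were negative in KO. The lineage factors Runx2 and Dlx5 overlapped between media there. Runx2 was at 70.1 to 87.8 CPM in conditioned and 80.5 to 94.6 CPM in unconditioned KO. Dlx5 was at 6.95 to 8.71 and 6.49 to 8.76 CPM. Sp7, another lineage factor, had 30.5, 3.16 and 1.73 CPM in conditioned KO libraries, against 40.8, 31.9 and 23.6 CPM in unconditioned KO libraries. It overlapped between media only through conditioned KO library 0. The part of these markers in the changes was not tested.

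**Figure D1:**
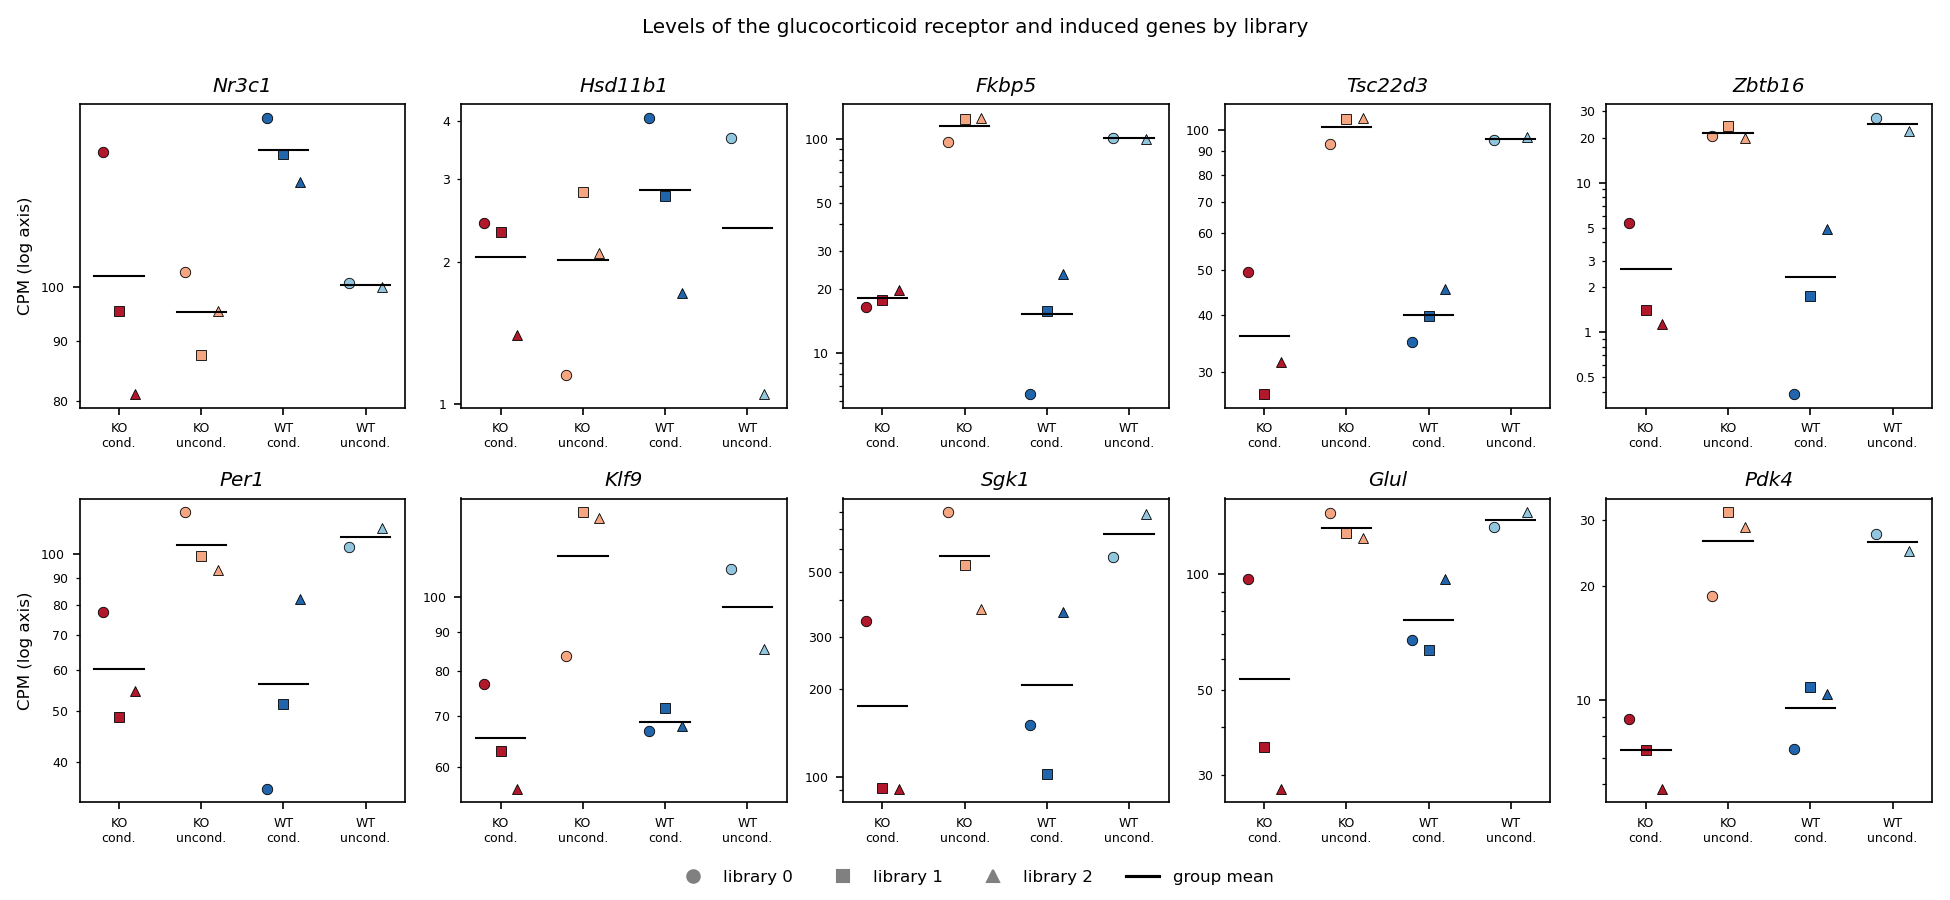
CPM of each gene in each library on a log axis, with the 4 groups from left to right as conditioned KO, unconditioned KO, conditioned WT and unconditioned WT (cond. and uncond.), marker shapes for library numbers and bars for group means. The 8 induced genes are lower in all 6 conditioned than in all 5 unconditioned libraries, while Nr3c1 and Hsd11b1 overlap between media.

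Fkbp5 (chromosome 17, 28398753 to 28517508) encodes FKBP51, a cochaperone that lowers the receptor's affinity for hormone and forms a feedback loop. It had 265, 290 and 367 fragments in conditioned KO libraries 0, 1 and 2, against 1423, 1751 and 1861 in unconditioned KO libraries. In WT it had 100, 233 and 354 fragments in conditioned libraries, against 1533 and 1434 in unconditioned libraries. The groups were far apart, with no conditioned library above 23.4 CPM and no unconditioned library below 96.2 CPM. Mean levels were 18.0 ± 1.67 CPM in conditioned KO and 115 ± 16.3 CPM in unconditioned KO (SD, n = 3 each). In WT they were 15.2 ± 8.51 CPM in conditioned medium (n = 3) and 100.5 ± 0.331 CPM in unconditioned medium (n = 2). On the log2 scale the changes were -2.68 (SE 0.36) in KO and -2.73 (SE 0.38) in WT. The change in KO stayed between -2.79 and -2.61 when each of the 11 libraries was left out in turn.

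Tsc22d3 (chromosome X, 140539529 to 140600522) encodes GILZ, a leucine zipper protein that restrains inflammatory transcription factors. It had 793, 443 and 587 fragments in conditioned KO libraries, against 1378, 1495 and 1576 in unconditioned KO libraries. In conditioned WT libraries it had 541, 587 and 686 fragments, against 1445 and 1378 in unconditioned WT libraries. Conditioned libraries reached at most 49.3 CPM and unconditioned ones were at least 93.1 CPM, so the media did not overlap. Changes on the log2 scale were -1.50 (SE 0.20) in KO and -1.26 (SE 0.22) in WT. The call in WT was lost in 6 of the 11 fits that left out 1 library and in the fit with library number as a replicate block.

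Zbtb16 (chromosome 9, 48651813 to 48835945) encodes PLZF, a zinc finger transcription factor. It was the scarcest of the 8 and varied most. It had 87, 23 and 21 fragments in conditioned KO libraries, against 302, 339 and 294 in unconditioned KO libraries. The conditioned WT libraries had 6, 26 and 74 fragments, against 413 and 315 in unconditioned WT libraries. Conditioned KO library 0 and conditioned WT library 2 were the highest of their groups, and the highest conditioned library was 14.0 times the lowest in CPM. The log2 changes were -3.02 (SE 0.73) in KO and -3.39 (SE 0.78) in WT. Without conditioned KO library 0 the change in KO was -4.07 (SE 0.73), and without conditioned WT library 2 the change in WT was -4.53 (SE 0.80).

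Per1 (chromosome 11, 69095250 to 69109957), a repressor of the circadian clock, had 1244, 800 and 1012 fragments in conditioned KO libraries, against 1777, 1406 and 1385 in unconditioned KO libraries. In conditioned WT libraries it had 553, 766 and 1241 fragments, against 1571 and 1604 in unconditioned WT libraries. The media did not overlap, but the highest conditioned library, at 82.1 CPM, lay close to the lowest unconditioned one, at 93.3 CPM. Log2 changes were -0.79 (SE 0.28) in KO and -0.93 (SE 0.30) in WT.

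Klf9 (chromosome 19, 23140418 to 23168116), a Krüppel-like transcription factor, had 1239, 1034 and 1043 fragments in conditioned KO libraries, against 1239, 1832 and 1882 in unconditioned KO libraries. Conditioned WT libraries had 1038, 1063 and 1025 fragments, against 1656 and 1226 in unconditioned WT libraries. After scaling to library size the media were apart, with 77.1 CPM as the highest conditioned and 83.7 CPM as the lowest unconditioned level. On the log2 scale the changes were -0.79 (SE 0.18) in KO and -0.50 (SE 0.20) in WT.

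Sgk1 (chromosome 10, 21882184 to 21999902), a kinase that controls ion transport and cell survival, had the most fragments of the 10 genes in all libraries except conditioned KO library 1 and conditioned WT library 1, where Nr3c1 had more. It had 5454, 1501 and 1691 fragments in conditioned KO libraries 0, 1 and 2, against 11834, 7469 and 5539 in unconditioned KO libraries. In conditioned WT libraries it had 2331, 1509 and 5530 fragments, against 8538 and 11267 in unconditioned WT libraries. The media all but touched, at 366 CPM in conditioned WT library 2 and 373 CPM in unconditioned KO library 2. Mean levels were 174 ± 143 CPM in conditioned KO and 567 ± 216 CPM in unconditioned KO (SD, n = 3 each). In WT they were 206 ± 141 CPM in conditioned medium (n = 3) and 674 ± 160 CPM in unconditioned medium (n = 2). Changes on the log2 scale were -1.70 (SE 0.61) in KO and -1.71 (SE 0.66) in WT. Without conditioned KO library 0 the change in KO was -2.63 (SE 0.56), and without conditioned WT library 2 the change in WT was -2.43 (SE 0.66).

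Glul (chromosome 1, 153899926 to 153909723) encodes glutamine synthetase. Its row is shared with the microRNA gene Mir8114, and the 2 cannot be separated in the table. The row had 1558, 583 and 514 fragments in conditioned KO libraries, against 2127, 1816 and 1839 in unconditioned KO libraries. Conditioned WT libraries had 1046, 938 and 1468 fragments, against 2012 and 2068 in unconditioned WT libraries. Conditioned libraries reached 97.2 CPM, below the lowest unconditioned level of 124 CPM. The log2 changes were -1.31 (SE 0.40) in KO and -0.87 (SE 0.43) in WT. Without conditioned KO library 0 the change in KO was -2.06 (SE 0.20). The call in KO was lost in the other 10 of the 11 fits that left out 1 library, with edgeR adjusted p = 0.0553 to 0.161, and in the fit with no filter on low counts.

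Pdk4 (chromosome 6, 5483351 to 5496467) encodes a kinase that inhibits pyruvate dehydrogenase and so spares glucose. It had 143, 121 and 108 fragments in conditioned KO libraries, against 278, 445 and 426 in unconditioned KO libraries. In conditioned WT libraries it had 115, 160 and 157 fragments, against 418 and 354 in unconditioned WT libraries. The highest conditioned level was 10.8 CPM and the lowest unconditioned level 18.8 CPM. Log2 changes were -1.84 (SE 0.24) in KO and -1.45 (SE 0.26) in WT, and the call in WT was lost in 7 of the 11 fits that left out 1 library.

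**Figure D2:**
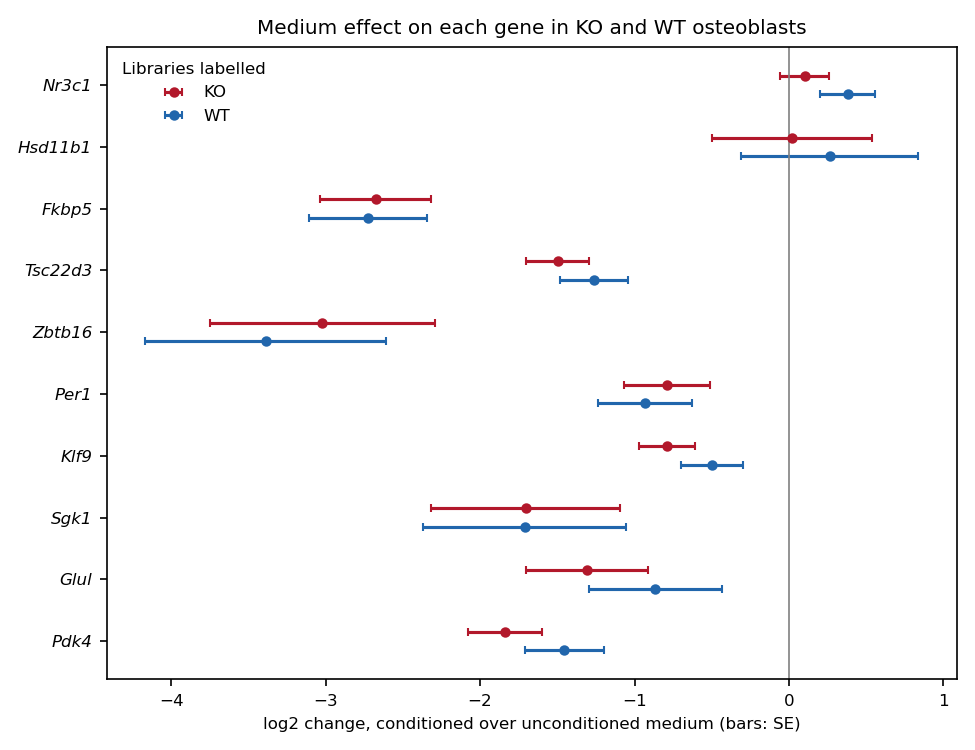
Log2 change of each gene with conditioned over unconditioned medium in KO (upper point of each row) and WT (lower point), with bars for 1 SE on each side. The 8 induced genes lie left of 0, from -0.50 for Klf9 in WT to -3.39 for Zbtb16 in WT, and the error bars of Hsd11b1 cross 0.

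Relative to length, the 10 genes covered a wide range in unconditioned KO cells. By FPKM, Sgk1 was highest at 220, followed by Tsc22d3 at 48.7, Glul at 43.9, Fkbp5 at 27.2, Per1 at 20.3, Klf9 at 20.1 and Nr3c1 at 13.3. Pdk4 at 6.96, Zbtb16 at 2.58 and Hsd11b1 at 1.47 FPKM were the lowest. Tsc22d3 with Glul, Fkbp5 with Per1, and Per1 with Klf9 were neighbours in this order whose ranges between libraries overlapped.

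Part of the spread among conditioned libraries was common to several of the genes. On a scale of log2 CPM centred on each gene's mean over the 11 libraries, the mean of the 10 genes was -0.13, -0.90 and -1.05 in conditioned KO libraries 0, 1 and 2, against 0.63, 0.84 and 0.71 in unconditioned KO libraries. It was -0.90, -0.58 and -0.14 in conditioned WT libraries 0, 1 and 2, against 0.85 and 0.67 in unconditioned WT libraries. Conditioned KO library 0 and conditioned WT library 2 thus lay between the other conditioned libraries and the unconditioned ones. These 2 libraries were the highest of their groups for Sgk1, Glul, Zbtb16, Per1 and Tsc22d3. Fkbp5 did not share the pattern in KO, where library 0 had the lowest number of fragments.

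**Figure D3:**
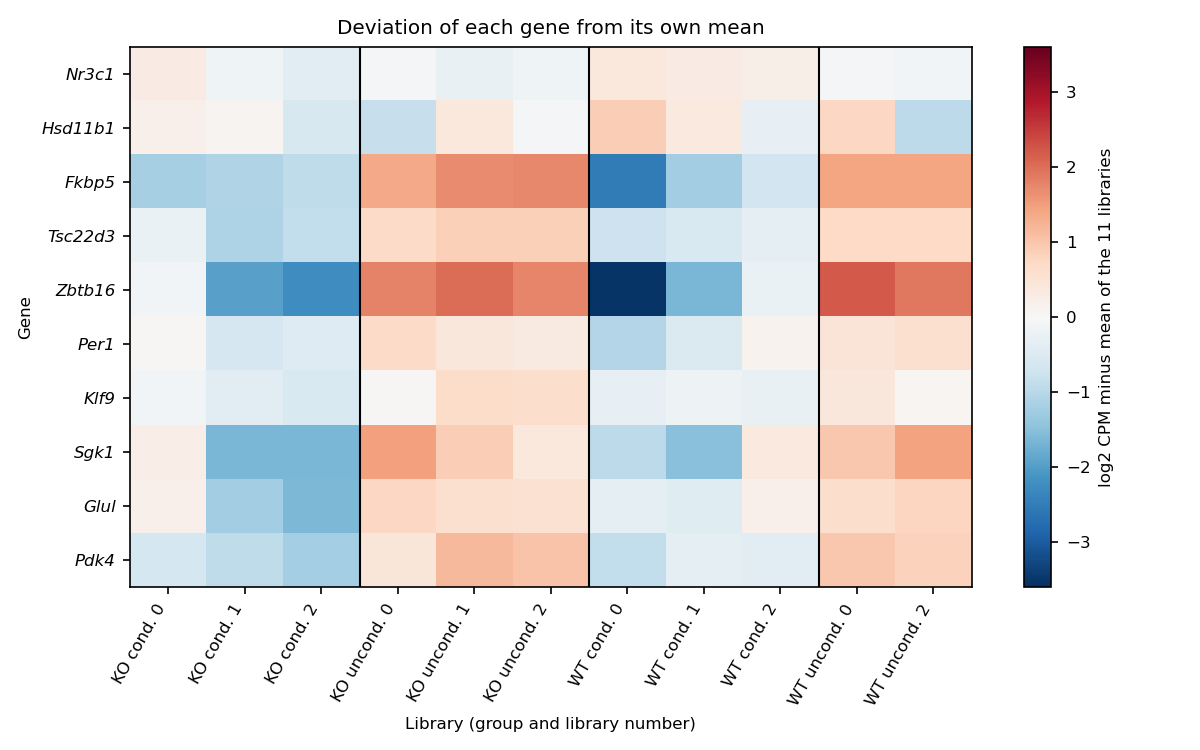
Log2 CPM of each gene minus its mean over the 11 libraries, with genes in rows, libraries in columns in the order conditioned KO, unconditioned KO, conditioned WT and unconditioned WT, and colour from blue (below the mean) to red (above). Conditioned KO library 0 and conditioned WT library 2 are paler than the other conditioned libraries for Sgk1, Glul, Zbtb16 and Per1, and Nr3c1 is near 0 throughout.

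The design also asks what the lack of PAR2 changed within each medium. In conditioned medium the log2 difference between KO and WT lay between -0.51 for Glul (SE 0.39) and 0.24 for Fkbp5 (SE 0.35), and Nr3c1 was at -0.35 (SE 0.16). None of the 10 genes was called, beside 0% of all genes. In edgeR 1897 of the 13603 genes reached an unadjusted p below 0.05, DESeq2 called 2 genes and limma on log2(FPKM + 1) called 0. Conditioned KO library 0 decided this count. Without it 3 of the 10 genes were called lower in KO, beside 4507 of all genes in either direction. The fit of all 11 libraries tested 13603 genes, and with so many called nothing is read from the 3. The 3 were Glul at -1.25 (SE 0.19), Nr3c1 at -0.55 (SE 0.11) and Tsc22d3 at -0.43 (SE 0.13). In unconditioned medium the differences lay between -0.25 for Sgk1 (SE 0.66) and 0.22 for Klf9 (SE 0.20), with none called, beside 0.00735% of all genes.

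The interaction, the medium effect in KO minus that in WT, lay between -0.44 for Glul (SE 0.59) and 0.37 for Zbtb16 (SE 1.04). No gene of the table was called in edgeR, beside 412 with an unadjusted p under 0.05. The calls in KO and not in WT for Zbtb16, Klf9 and Glul therefore do not show a difference between genotypes. Without conditioned KO library 0 the interaction was called for Glul, at -1.19 (SE 0.27), beside 1419 of all genes.

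The table also splits genes into groups of transcripts that share a start site, which gives shares within a gene. These shares come from the same libraries as the levels and are not independent of them, so they are a description as well. Of the 10 genes, 8 had several such groups, and Zbtb16 and Glul had 1. A start-site test (diffSpliceDGE in edgeR, adjusted over 2822 genes) called 0.106% of genes in KO and 0.0354% in WT, and none of the 8. The fragments of a group are estimates that Cuffdiff assigned among overlapping transcripts. For Per1, 2 groups whose transcripts differ by 1 base in length, 4661 and 4660, took quite different parts of the gene's fragments between libraries of 1 group, which shows the limit of that assignment.

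Fkbp5 had 2 groups, with longest transcripts of 3884 and 4034 bases. The longer one had 0 fragments in all 6 conditioned libraries, against 126, 72 and 68 in unconditioned KO libraries and 234 and 83 in unconditioned WT libraries. Its share of the gene's fragments was 3.66% to 15.2% in unconditioned libraries. The longer group passed the filter on low counts only through those libraries. A count of 0 of 1609 fragments over the conditioned libraries allows a share of up to 0.186%, a limit that covers counting error only. The edgeR start-site test did not call it, with an adjusted p = 0.216 in KO and an adjusted p = 0.151 in WT. In the authors' deposited table, which tests differences in start-site use, 1 of 32 tests on the 8 genes was marked significant, that of Fkbp5 between WT media (q = 0.0133). The share marked significant over all genes was not computed, so nothing is read from this count. In KO the authors' deposited table gives q = 0.231 for Fkbp5. The authors' WT test has the nearly identical libraries as separate ones.

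Sgk1 has several start sites on chromosome 10. The group of NM_011361 held 87.2% to 95.9% of the gene's fragments in conditioned libraries and 82.0% to 84.2% in unconditioned libraries, with no overlap. The group of NM_001161849 held 1.39% to 9.13% in conditioned libraries and 12.2% to 13.9% in unconditioned libraries. It had 425, 41 and 23 fragments in conditioned KO libraries, against 1443, 1036 and 716 in unconditioned KO libraries. It had 166, 44 and 505 in conditioned WT libraries, against 1064 and 1569 in unconditioned WT libraries. Conditioned KO library 0 and conditioned WT libraries 0 and 2 had more Sgk1 fragments than the other conditioned libraries. They also had higher shares of this group, so the share moved with the level of the gene. The group of NM_001161850 held 1.17% to 4.60% in conditioned libraries and 2.38% to 3.40% in unconditioned libraries, and overlapped. The start-site test did not call Sgk1 in either genotype (edgeR, adjusted p = 1 in both).

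**Figure D4:**
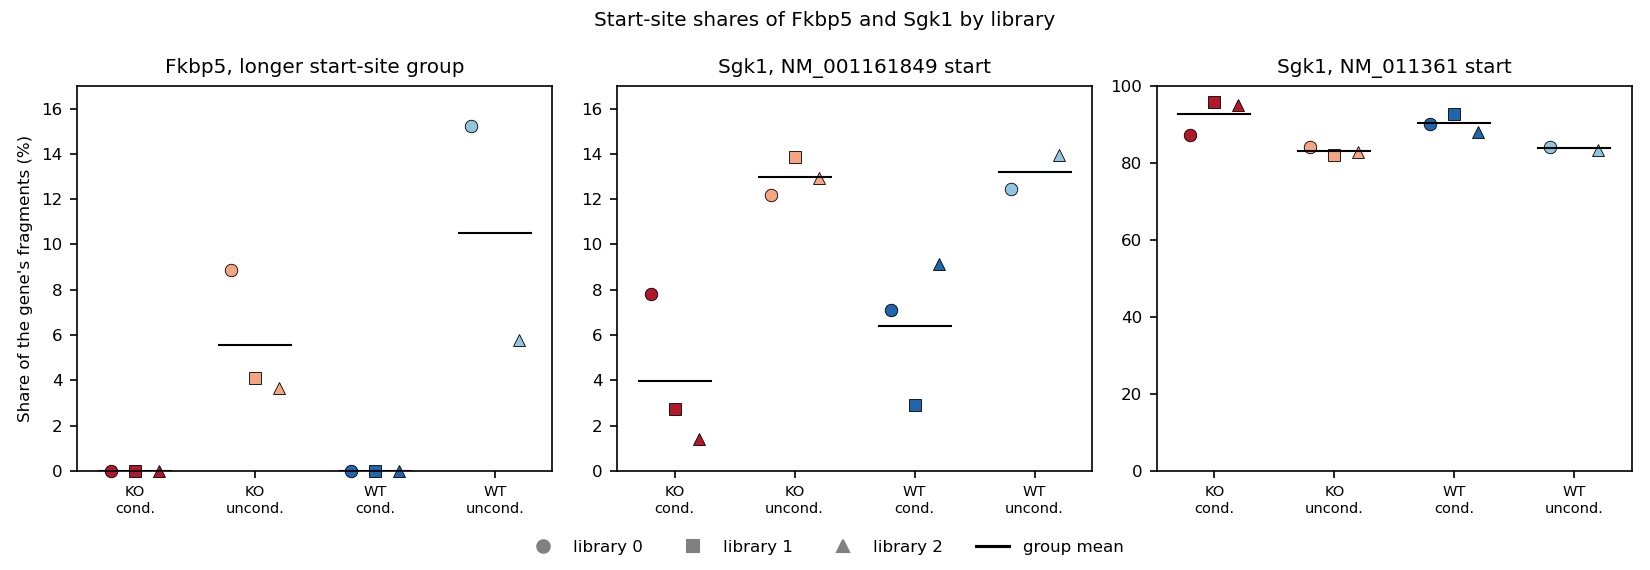
Share of each gene's fragments, in percent, in 1 start-site group per panel and in each library, with groups from left to right as conditioned KO, unconditioned KO, conditioned WT and unconditioned WT, marker shapes for library numbers and bars for group means; the right panel has its own scale. The longer Fkbp5 group is at 0 in all conditioned libraries, and the NM_001161849 share of Sgk1 is 1.39% to 9.13% in conditioned and 12.2% to 13.9% in unconditioned libraries.

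Promoter sequence was searched because the 8 genes were lower together. RefSeq windows of 250 bases before to 50 after a start site (GRCm38.p6) matched 8 of the 9 genes searched, with 16 windows. Nr3c1 was not searched. The 15-letter palindrome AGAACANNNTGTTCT, the form of a full glucocorticoid response element, stood in 3 of 32851 windows of all genes (0.00913%), and 1 of the 3 was Sgk1. The looser form GNACANNNTGTNC, which contains the first, stood in 0.475% of windows, in 1 of the 16 and in 6 of 51 windows of a list of other glucocorticoid-induced genes (described below). CACGTG, the E-box that clock proteins bind, stood in 7.15% of all windows and in 3 of the 16. All 3 motifs were searched on both strands. A match is a description of letters, and windows without one say nothing of elements elsewhere.

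The windows are printed 5′ to 3′ on the gene's strand, with a match in capitals. The first Sgk1 window (chr10:21993640-21993939, plus strand) ends 50 bases after the start of NM_001161850 at 21993890, and its palindrome lies at 21993701 to 21993715, 189 bases before that start and 965 before the start of NM_011361. It also holds CACGTG, left in lower case. The second Sgk1 window (chr10:21994416-21994715, plus strand) surrounds the start of NM_011361 at 21994666, from which most fragments came, and holds none of the 3 motifs. The Fkbp5 window (chr17:28486100-28486399, minus strand) and the Per1 window (chr11:69098699-69098998, plus strand) hold CACGTG, 169 and 166 bases before their start sites.
Sgk1, NM_001161850 start: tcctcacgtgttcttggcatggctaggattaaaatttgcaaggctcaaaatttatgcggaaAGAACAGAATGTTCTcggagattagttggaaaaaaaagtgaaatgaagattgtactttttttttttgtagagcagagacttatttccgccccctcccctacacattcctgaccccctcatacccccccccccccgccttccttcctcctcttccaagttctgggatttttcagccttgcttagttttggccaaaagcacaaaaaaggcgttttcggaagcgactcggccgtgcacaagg
Sgk1, NM_011361 start: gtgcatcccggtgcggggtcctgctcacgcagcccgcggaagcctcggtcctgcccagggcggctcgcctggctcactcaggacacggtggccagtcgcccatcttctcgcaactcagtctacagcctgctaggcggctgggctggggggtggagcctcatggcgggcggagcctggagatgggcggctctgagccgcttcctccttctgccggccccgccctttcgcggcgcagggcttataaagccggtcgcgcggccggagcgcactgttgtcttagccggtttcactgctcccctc
Fkbp5: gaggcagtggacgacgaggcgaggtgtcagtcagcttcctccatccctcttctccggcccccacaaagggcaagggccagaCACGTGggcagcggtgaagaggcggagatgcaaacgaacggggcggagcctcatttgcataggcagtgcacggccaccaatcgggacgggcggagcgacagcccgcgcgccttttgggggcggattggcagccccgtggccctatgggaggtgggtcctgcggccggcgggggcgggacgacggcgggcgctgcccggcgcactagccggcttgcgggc
Per1: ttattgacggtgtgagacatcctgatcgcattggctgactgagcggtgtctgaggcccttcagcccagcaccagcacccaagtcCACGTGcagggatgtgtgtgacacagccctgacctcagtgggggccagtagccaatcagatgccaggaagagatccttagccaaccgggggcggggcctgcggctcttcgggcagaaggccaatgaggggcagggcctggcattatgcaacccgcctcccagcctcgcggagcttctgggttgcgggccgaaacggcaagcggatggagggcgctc

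The rest of the pathway was read from 3 lists. Genes named as changed in an earlier report were left out of them, so the counts and medians of the lists do not cover those genes. The machinery of the receptor (28 genes, all tested) covers chaperones, enzymes of hormone metabolism, coregulators and transporters. With conditioned medium in KO, 2 were called lower, beside 8.58% of all genes, and 4 higher, beside 9.68% of all genes. The list's median log2 change was 0.18, against 0.02 over all genes. In WT none was called, beside 0.551% of all genes lower and 1.23% higher, and the median was -0.07 against 0.01.

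Hsd11b2, whose enzyme inactivates the hormone, fell in KO by 4.03 on the log2 scale (SE 0.79, edgeR adjusted p = 0.0120). It had 5, 4 and 1 fragments in conditioned KO libraries, against 10, 56 and 81 in unconditioned KO libraries. Conditioned WT libraries had 2, 3 and 1 fragments, against 13 and 10 in unconditioned libraries, and the change was not called (log2 change -2.49, SE 0.96, edgeR adjusted p = 0.244). H6pd makes the cofactor for 11-beta-hydroxysteroid dehydrogenase 1. It fell in KO by 1.08 (SE 0.20, edgeR adjusted p = 0.0106), with 1931, 1648 and 1602 fragments in conditioned KO libraries, against 2374, 3375 and 3728 in unconditioned KO libraries. In WT it was at -0.74 (SE 0.22, edgeR adjusted p = 0.123). Nr3c2, the mineralocorticoid receptor, which also binds glucocorticoids, rose in KO from a low level, with 20, 21 and 29 fragments in conditioned KO libraries, against 5, 8 and 8 in unconditioned KO libraries (log2 change 1.49, SE 0.42, edgeR adjusted p = 0.0370). In WT it had 26, 34 and 13 fragments in conditioned libraries, against 7 and 7 in unconditioned libraries, and was not called (log2 change 1.74, SE 0.48, edgeR adjusted p = 0.101).

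The chaperones that hold the receptor were not called in either genotype. Log2 changes in KO were 0.13 for Fkbp4, the cochaperone that competes with FKBP51, -0.16 for Hsp90aa1, -0.02 for Hsp90ab1 and 0.16 for Ptges3, the cochaperone p23. In WT they were 0.02, -0.24, -0.08 and -0.19 in the same order. Ppp5c, a phosphatase bound to the Hsp90 complex, rose in KO by 0.44 (SE 0.13, edgeR adjusted p = 0.0477).

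Ppargc1a, a coactivator of nuclear receptors and of mitochondrial genes, had the largest change of the list. It had 150, 772 and 990 fragments in conditioned KO libraries, against 19, 18 and 26 in unconditioned KO libraries, and rose by 4.66 (SE 0.65, edgeR adjusted p = 0.00497). Conditioned WT libraries had 384, 172 and 202 fragments, against 31 and 43 in unconditioned libraries, with a log2 change of 2.72 (SE 0.70, edgeR adjusted p = 0.0811). All 6 conditioned libraries lay above all 5 unconditioned ones. Of the 19 genes of the 3 lists called in KO, it is the one whose call held in all 11 fits that left out 1 library, and the calls of the others held in 2 to 10 of the 11. Abcb1a, an efflux pump that carries steroids, rose in KO by 2.31 (SE 0.43, edgeR adjusted p = 0.0105). Fragments of the near-identical paralogue Abcb1b, which was not called, could be assigned to it.

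The other glucocorticoid-induced genes (54 listed from general knowledge after that omission, 46 tested) changed in both directions. In KO, 9 were called lower and 1 higher, beside 8.58% and 9.68% of all genes, 28 had a negative change, and the median was -0.21, against 0.02 over all genes. In WT, 1 was called lower, beside 0.551% of all genes, 34 had a negative change, and the median was -0.32, against 0.01 over all genes. Changes were negative for 48.4% of all genes in KO and 48.0% in WT.

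Slc10a6, a transporter of sulphated steroids, was the one called in both genotypes. It had 121, 89 and 89 fragments in conditioned KO libraries, against 211, 435 and 428 in unconditioned KO libraries, and fell by 2.06 (SE 0.38, edgeR adjusted p = 0.0107). In WT it had 44, 112 and 95 fragments in conditioned libraries, against 348 and 281 in unconditioned libraries, and fell by 1.94 (SE 0.41, edgeR adjusted p = 0.0483). The media did not overlap. Its call held in 9 of the 11 fits that left out 1 library in KO and in 2 of the 11 in WT, and the WT call was lost with a replicate block (edgeR adjusted p = 0.0508). Hif3a, a member of the hypoxia-inducible factor family, had 10, 0 and 4 fragments in conditioned KO libraries, against 25, 60 and 84 in unconditioned KO libraries (log2 change -3.77, SE 0.85, edgeR adjusted p = 0.0190). The change in KO was -4.995 (SE 0.97) when conditioned KO library 0 was left out. Conditioned WT libraries had 2, 3 and 10 fragments, against 41 and 53 in unconditioned libraries, with a log2 change of -3.24 (SE 0.89, edgeR adjusted p = 0.0976).

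Cebpd, a transcription factor of adipocyte differentiation and the acute phase, fell in KO by 1.14 (SE 0.26, edgeR adjusted p = 0.0206), and its change in WT was -1.21 (SE 0.29, edgeR adjusted p = 0.0644). Aqp1, a water channel, fell in KO by 1.58 (SE 0.39, edgeR adjusted p = 0.0256), with 673, 869 and 727 fragments in conditioned KO libraries, against 747, 2163 and 2916 in unconditioned KO libraries. Without unconditioned KO library 0, which lay far below libraries 1 and 2, its change was -1.97. Gadd45b, a stress sensor, Arrdc2, an arrestin-like protein, Nedd9, a scaffold protein of focal adhesions, Spsb1, a ubiquitin ligase adaptor, and Errfi1, an inhibitor of EGF receptor signalling, also fell in KO, with log2 changes of -1.26, -1.17, -0.72, -0.58 and -1.56. Lpin1, a phosphatidate phosphatase, rose by 0.89. The edgeR adjusted p of these 6 genes lay between 0.0217 and 0.0479. Errfi1 and Lpin1 were named after their values were seen. Other textbook targets were not called in KO, among them Dusp1 at 0.08 (SE 0.63), Mt1 at -0.08 (SE 0.24), Per2 at -0.45 (SE 0.25) and Lcn2 at -2.44 (SE 0.83).

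Genes known to be repressed by glucocorticoids (28 listed, 21 tested) changed in both directions. In KO, 1 was called lower and 2 higher, beside 8.58% and 9.68% of all genes. Of the changes in KO 7 were negative and 14 positive, with a median of 0.18, against 0.02 over all genes. In WT none was called, 10 changes were negative and 11 positive, and the median was 0.07, against 0.01 over all genes. Csf3, a granulocyte growth factor, had 3, 5 and 2 fragments in conditioned KO libraries, against 12, 34 and 24 in unconditioned KO libraries (log2 change -2.97, SE 0.66, edgeR adjusted p = 0.0181). Cxcl10, a chemokine of the interferon response, had 27, 74 and 180 fragments in conditioned KO libraries, against 15, 13 and 9 in unconditioned KO libraries (log2 change 2.64, SE 0.67, edgeR adjusted p = 0.0282). It was not called when conditioned KO library 2 was left out (log2 change 1.87, SE 0.61). Ccl2, a chemokine for monocytes, rose in KO by 0.89 (SE 0.25, edgeR adjusted p = 0.0397). In the comparisons of KO with WT and in the interaction, no gene of the 3 lists was called in edgeR. When conditioned KO library 0 was left out, 29 of their genes were called between KO and WT in conditioned medium, beside 4507 of all genes, and 9 in the interaction, beside 1419 of all genes. With so many of all genes called, nothing is read from these counts. Among the 29 were the cochaperone genes Ptges3, at 0.74 (edgeR adjusted p = 0.00637), and Fkbp4, at 0.42 (edgeR adjusted p = 0.0277), both higher in KO.

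**Figure D5:**
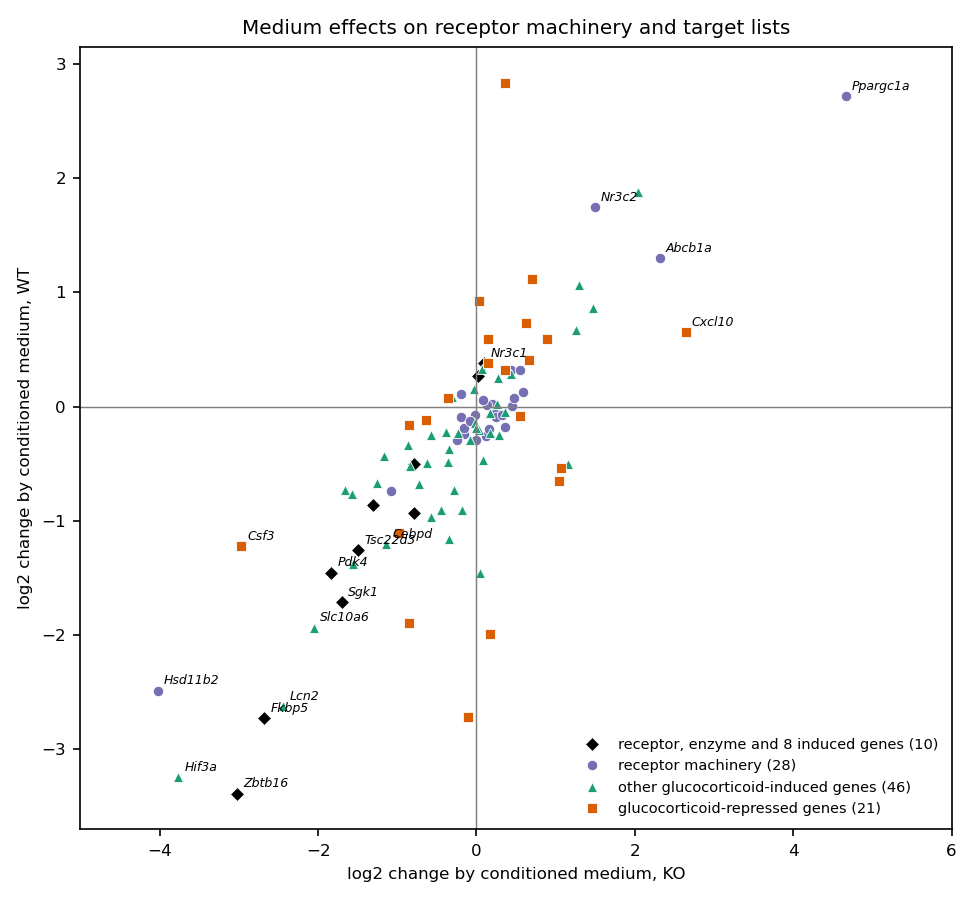
Log2 change with conditioned medium in KO (horizontal) and in WT (vertical) for the 10 genes and for the tested genes of the 3 lists, 1 point per gene. The 8 induced genes lie in the lower left with Slc10a6, Hif3a, Lcn2 and Hsd11b2, Ppargc1a lies at the upper right with 4.66 in KO and 2.72 in WT, and most of the receptor machinery is near 0.

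Markers of other cell types were read as groups. Sums cover only the markers that passed the filter on low counts. Of 12 macrophage markers 11 were matched by symbol and 8 passed. Their summed level was 48.6 to 119 CPM in conditioned KO, 51.8 to 78.5 CPM in unconditioned KO, 103 to 136 CPM in conditioned WT and 60.2 to 84.9 CPM in unconditioned WT. The sum of the 8 of 12 adipocyte markers that passed was 81.9 to 156 CPM in conditioned KO, 52.0 to 128 CPM in unconditioned KO, 110 to 157 CPM in conditioned WT and 67.8 to 74.9 CPM in unconditioned WT. The sum of 14 skeletal muscle markers reached 302 CPM in unconditioned WT library 0 and was 25.9 to 215 CPM in the other libraries. All 14 changes of muscle markers with conditioned medium were negative in WT and 10 were in KO, with none called. None of these markers was at 0 in all libraries. Of 10 osteoblast markers tested, 8 changes were negative in KO and 7 in WT, and Alpl, alkaline phosphatase, was called in KO (log2 change -1.68, edgeR adjusted p = 0.0366). Of 8 adipocyte markers tested, 4 changes were negative and 4 positive in KO, and 3 were negative and 5 positive in WT. Only Fabp4 of these was called, in KO (log2 change -2.88, edgeR adjusted p = 0.0102). The part of these cell types in the changes was not tested.

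The genes outside the 10 whose log2 CPM followed the mean profile of the 10 most closely were Gcnt2, Mlxip, Crispld2, 1700017B05Rik and Ptch1. Pearson's r over the 11 libraries was 0.989, 0.987, 0.985, 0.983 and 0.983 in that order. All points share the libraries from which the profile was made, so the values are a description. Gcnt2 (chromosome 13, 40859768 to 40960892), a glycosyltransferase that branches sugar chains, had 351, 195 and 211 fragments in conditioned KO libraries, against 864, 924 and 907 in unconditioned KO libraries. In WT it had 171, 189 and 317 fragments in conditioned libraries, against 862 and 776 in unconditioned libraries. As with Sgk1 and Glul, conditioned KO library 0 and conditioned WT library 2 were the highest of their groups. Crispld2, a secreted protein, had 2042, 518 and 425 fragments in conditioned KO libraries, against 4061, 5156 and 5674 in unconditioned KO libraries. The conditioned WT libraries had 389, 970 and 1108 fragments, against 5796 and 3439 in unconditioned libraries.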

How the data were processed

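RNA of 12 samples was sequenced from unstranded TruSeq RNA v2 libraries. The submitters' processing notes name GRCm38 (mm10), TopHat2 2.0.9, Cufflinks 2.1.1, Cuffdiff 2.1.1 and CASAVA 1.8.2. The values analysed are the authors' raw fragments per gene and per start-site group, deposited as estimated counts by Cuffdiff. FPKM, which the authors scaled between libraries per the file headers, gave levels per length and 1 alternative. The authors' deposited promoter test gave q-values and p-values and a score, the square root of the Jensen-Shannon divergence. Transcript lengths are other values, per the file headers. Gene starts are printed 1 base later than in the deposited tables.

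The 1714 genes without a symbol, with 2.69% to 3.10% of a library's fragments, were left out. Fragments were rounded and fitted with edgeR 4.0.16 in R 4.3.3 (TMM, filterByExpr, robust quasi-likelihood) in 1 fit of 4 groups over 13603 genes, with 7 residual degrees of freedom and a common biological coefficient of variation of 0.238. Benjamini-Hochberg adjusted p under 0.05 counts as called, and the SE is the size of the log2 change over the square root of F. Unconditioned WT libraries 0 and 1 had equal values for 91.8% of 17538 genes (a chi-square of 759 with 15474 degrees of freedom; the next-closest pair had 94766 with 15124) and were averaged. Separate animals or cultures per sample are not stated in the labels, and p-values then cover only sample-to-sample spread, which may be technical. The code was tested on simulated data. Alternatives were DESeq2 1.42.0, limma 3.58.1 on log2(FPKM + 1) for genes at 1 FPKM or more in 2 libraries, no filter, a replicate block and leaving out libraries.

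The 10 genes and the lists were chosen with earlier results of these data known. Named are the 10 genes, 7 set genes of the receptor machinery (Nr3c2, Hsd11b2, H6pd, Fkbp4, Hsp90aa1, Hsp90ab1 and Ptges3), up to 8 called genes of each list with the smallest p, the 5 genes most like the mean profile, and marker genes that were called. Dusp1, Mt1, Per2 and Lcn2 were added as uncalled examples after their values were seen.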

Additional observations from a re-analysis of the deposited data

How the results depend on the processing

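Of 1694 alternative values of log2 changes of the 10 genes and the named list genes, 1533 stayed on their side of the threshold, 125 lost a call (35 of the 10 genes) and 36 gained one (27 of the 10 genes), and none reversed a called change. Fits that left out 1 library gave 115 of the lost and 15 of the gained calls. In KO the medium comparison called 319 to 6094 genes and 3 to 8 of the 10 genes. The 3 (Fkbp5, Tsc22d3 and Pdk4) remained without conditioned KO library 1 or 2 or unconditioned KO library 1 or 2, and the 8 were called without conditioned KO library 0. In WT it called 0 to 916 genes and 0 to 5 of the 10. The 0 came without either unconditioned WT library, which leaves 1 sample that is assumed to vary like the other groups, and Fkbp5 alone was called without conditioned WT library 0 or 1 or unconditioned KO library 1 or 2. KO against WT called 0 to 4507 genes and 0 to 3 of the 10 in conditioned medium and 0 to 2 genes in unconditioned medium. The interaction called 0 to 1419 genes and 0 to 1 of the 10, and start-site usage 0 to 8 genes in KO and 0 to 4 in WT. Without both KO libraries numbered 0, the medium comparison called 6822 genes in KO and 1589 in WT. Of the 10 genes, 7 were then called in WT, with 6 lower and Nr3c1 higher. KO against WT then called 5765 genes with 3 of the 10 in conditioned medium and 659 genes in unconditioned medium, the interaction 2605 genes with 3 of the 10, and start-site usage 5 genes in KO and 4 in WT. DESeq2 called 886 genes in WT and 2 between the genotypes in conditioned medium, and limma called 0 between the genotypes in unconditioned medium. The cause of these differences was not tested.

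Sample titles number the samples alike in both media, as in KO1 Control and KO1 MDA, and do not say whether these are matched cultures. Library numbers, which no label ties to the titles, were not taken as pairs. The KO pairs all correlated, while the WT pairs depended on the number given to the averaged library. Deviations of same-numbered libraries from their group means gave correlations of 0.354, 0.241 and 0.317 for the KO pairs. With the averaged library as number 0, WT library 0 gave -0.146 and WT library 2 gave 0.438. With it as number 1, conditioned WT library 1 gave 0.484, so that every pair was positive. The deviations of the 2 unconditioned WT libraries mirror each other, so the WT pairs cannot decide whether the numbers are pairs. Conditioned KO library 1 correlated best with unconditioned KO library 2 (0.283). With library number as a replicate block, 6 of the 10 genes were called in KO and 2 in WT, where the call of Tsc22d3 was lost, and 0 genes between genotypes in unconditioned medium. Of the list genes, Nr3c2, Ppp5c, Errfi1 and Cxcl10 lost their calls in KO and Slc10a6 in WT under this block. With the averaged library as number 1 in the block, a choice made after seeing the data, 7 and 3 of the 10 were called and again 0 genes between genotypes in unconditioned medium. At 15 to 63 fragments in a library, Hsd11b1 had an SE of 0.52 in KO and 0.57 in WT on the log2 scale, which limits what could be detected for it.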
